A study of Mus musculus with 4 samples.

Results

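The immunoglobulin heavy constant genes and the J chain gene were examined in ChAT-eGFP+ cells of mouse inguinal white adipose tissue (IWAT). These 9 genes, taken by symbol from the 31053 genes of the count matrices, were Ighm, Ighd, Ighg3, Ighg1, Ighg2b, Ighg2c, Ighe, Igha and Jchain. The animals were male ChATBAC-eGFP mice, in which a bacterial artificial chromosome carrying Chat regulatory sequence drives eGFP. They were moved to 30 °C at 5 weeks of age and kept there for 3 weeks. Mice of the cold group then spent a day at room temperature and 4 h at 4 °C, and mice of the thermoneutrality group stayed at 30 °C. Live eGFP+ cells of the stromal vascular fraction (SVF) were sorted, and 2 libraries per temperature were made by single-cell RNA sequencing, each from 4 pooled mice. A sort on a reporter does not sample all plasma cells or B cells of the tissue, and the data hold no eGFP-negative cells for comparison.

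An antibody's heavy chain joins a variable region to one of the constant regions, and that constant region sets the class. Naive B cells splice the same transcript to Ighm (IgM) or Ighd (IgD). After activation, often in a germinal centre, class switch recombination deletes the DNA between Ighm and the chosen downstream gene, so that a switched cell transcribes a gamma gene (IgG), Ighe (IgE) or Igha (IgA) in place of Ighm and Ighd. Plasma cells are the antibody-secreting end of this lineage. The J chain links IgM into pentamers and IgA into dimers, and IgG is secreted without it.

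All the heavy constant genes lie on the minus strand of chromosome 12 of GRCm38 (mm10), where the annotation (GENCODE M21) places them in the order in which they can be switched to. Ighm occupies chr12:113418558-113422730, Ighd chr12:113406604-113416324, Ighg3 chr12:113356224-113361232, Ighg1 chr12:113325240-113330523, Ighg2b chr12:113302965-113307933, Ighg2c chr12:113285325-113288932, Ighe chr12:113269260-113273248 and Igha chr12:113254830-113260236. Jchain lies apart from them, on the minus strand at chr5:88519809-88527891. The transcripts end differently where the J chain attaches, and the last 63 coding bases of the secreted form (20 codons and the stop) are given for the genes that plasma cells used below, as read from the genome on the coding strand from 5′ to 3′. Each of these stretches lies within a single exon, and the capitals mark the codon next to the last before the stop.
Ighm, chr12:113420867-113420929: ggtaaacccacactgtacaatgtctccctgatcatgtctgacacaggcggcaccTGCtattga
Igha, chr12:113258768-113258830: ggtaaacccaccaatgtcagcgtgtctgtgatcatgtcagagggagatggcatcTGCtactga
Ighg3, chr12:113359665-113359727: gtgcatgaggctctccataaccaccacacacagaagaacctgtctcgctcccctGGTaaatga
Ighg2b, chr12:113306389-113306451: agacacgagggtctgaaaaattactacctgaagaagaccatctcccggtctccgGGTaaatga
Ighg2c, chr12:113287389-113287451: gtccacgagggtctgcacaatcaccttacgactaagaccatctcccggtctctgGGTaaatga
In Ighm and Igha this codon is TGC, for the tailpiece cysteine through which the J chain is bound, and it is the only cysteine codon of the 20. In the gamma genes it is GGT, for glycine, and the stretch holds 0 cysteine codons. The gamma genes resemble each other, yet no run of 91 bases, the length of window that was compared, was shared exactly between the secreted transcripts of any pair of the 8 heavy constant genes.

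After quality filters, 21253 cells were kept, between 5191 and 5388 per library with a median of 7520 to 8068 unique molecular identifiers (UMIs) per cell. Libraries shared 5 to 14 cell barcodes per pair. Cells were assigned by counting detected marker genes, none of them a gene under study, which gave 375 plasma cells, 817 germinal centre B cells and 8405 other B cells, beside 7819 T cells, 977 macrophages and 478 group 2 innate lymphoid cells (ILC2). A further 747 cells (3.51%) with markers of more than one lineage were left out as likely doublets, among them 89 of the 464 cells that passed the plasma gate, and 1240 cells passed no gate. Levels are CPM, a gene's UMIs in a cell class of a library scaled by the total UMIs of that class. The 3′ libraries count molecules, so no level was divided by transcript length. Igkc and Mki67, which are outside the gates, were read as a check of the classes. Igkc, the kappa light chain gene, was at 376674 to 423734 CPM in plasma cells and at 5140 to 7999 CPM in germinal centre B cells. Cd3e of the T cell receptor complex did not exceed 2.91 CPM in any of the B lineage classes. It is a marker of the T gate, and cells of more than one lineage were left out, so its low level was partly set by the gating. Mki67, a gene of dividing cells, was at 390 to 471 CPM in germinal centre B cells against 29.4 to 37.7 CPM in other B cells.

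Plasma cells in IWAT mostly used Ighm or Igha. The dominant gene of a cell was the heavy constant gene with the most UMIs, at least 3 of them and no tie, and all 375 plasma cells had one. Ighm was dominant in 220 of them, Igha in 101, Ighg2b in 34, Ighg3 in 13, Ighg2c in 6 and Ighg1 in 1, and Ighd and Ighe in 0. Each plasma cell held almost a single heavy chain. The median cell had 4248 UMIs of its dominant gene, which made up 99.9% of its heavy constant UMIs, and heavy constant genes and Jchain took a median of 13.8% and 5.76% of all UMIs of a cell. A second heavy constant gene at 10% or more of the dominant one was found in 10 of the 375 cells (2.67%).

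**Figure D1:**
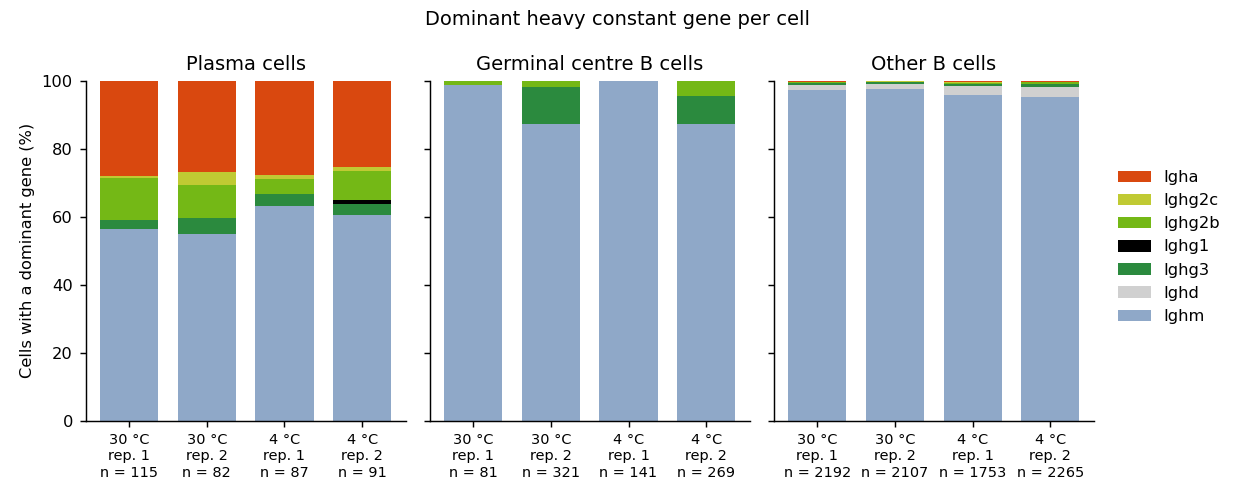
Stacked bars give the percent of cells whose dominant heavy constant gene was each gene, per library at 30 °C and 4 °C, in plasma cells, germinal centre B cells and other B cells, with the number of cells with a dominant gene under each bar. Igha makes up 25.3% to 27.8% of each plasma cell bar and is dominant in no germinal centre B cell.

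At 30 °C, Ighm was dominant in 56.5% and 54.9% of the plasma cells of replicates 1 and 2, and at 4 °C in 63.2% and 60.4%. Igha was dominant in 27.8% and 26.8% at 30 °C and in 27.6% and 25.3% at 4 °C. The gamma genes together were dominant in 15.7% and 18.3% at 30 °C and in 9.20% and 14.3% at 4 °C. The switched share, all cells whose dominant gene was neither Ighm nor Ighd, was therefore 43.5% (95% Clopper-Pearson interval 34.3 to 53.0) and 45.1% (34.1 to 56.5) at 30 °C, against 36.8% (26.7 to 47.8) and 39.6% (29.5 to 50.4) at 4 °C. Both cold libraries lay under both thermoneutral ones, by 6.13 percentage points in the mean, and all 4 intervals overlapped. The two-sided exact permutation test over libraries gave p = 0.333, the smallest value that 2 libraries against 2 allow, so no difference in isotype use between temperatures can be shown at this number of libraries. Intervals here cover counting error only, not the spread between pools of mice.

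Summed levels in plasma cells gave the same order. Ighm was at 61071 and 50143 CPM at 30 °C and at 70648 and 60951 CPM at 4 °C, and Igha was at 53457 and 46679 CPM at 30 °C and at 54169 and 47864 CPM at 4 °C. Jchain was at 56932 and 57458 CPM at 30 °C and at 53386 and 54372 CPM at 4 °C. These 3 genes had similar levels in all the libraries, and the temperatures overlapped for Ighm and Igha. Ighg2b, at 21786 and 17843 CPM at 30 °C, was at 7034 and 21094 CPM at 4 °C, so that the first cold library alone stood low. Ighg3 was between 4300 and 8022 CPM and Ighg2c between 827 and 5832 CPM. In every library at least 29.3% of the Ighg3 UMIs and 44.5% of the Ighg2c UMIs came from a single cell. Ighg1, the gene of the IgG1 class, had 0 plasma cell UMIs in 3 libraries and 2210 CPM in the second cold library, 99.9% of it in 1 cell.

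Cold and thermoneutral plasma cells were compared with edgeR's quasi-likelihood test on summed counts, and p-values were adjusted by the Benjamini-Hochberg method across the genes tested. Of the 7 members with enough counts, 0 passed an adjusted p of 0.05, where 0.789% of all genes tested did. At an unadjusted p of 0.05 edgeR called 1 member, Ighd, and DESeq2 called 1 after adjustment, the Ighg1 of that single cell. With a library left out, 1 or 2 passed. Ighm differed by 0.18 (SE 0.21, adjusted p = 0.819) on the log2 scale, with cold minus thermoneutrality as the direction here and throughout. Jchain differed by -0.15 (SE 0.18, adjusted p = 0.830), Igha by -0.04 (SE 0.19, adjusted p = 0.969) and Ighg2b by -0.55 (SE 0.43, adjusted p = 0.700). For Ighm, Jchain and Igha the SE exceeded the difference, and a p that misses the threshold does not show equal levels.

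Against other B cells, plasma cells held far more Ighm, Igha, Jchain, Ighg3, Ighg2b and Ighg2c and less Ighd. All 8 members tested passed the threshold, in a comparison where 50.1% of all genes tested did. Ighm rose by 5.56 on the log2 scale (SE 0.096, adjusted p = 5.59e-14) from a mean of 3210 ± 62.0 CPM (SD, n = 4 libraries) in other B cells to 60703 ± 8379 CPM in plasma cells. Igha rose by 10.55 (SE 0.18) from 86.5 ± 23.5 to 50542 ± 3819 CPM, and Jchain by 10.52 (SE 0.28) from 104 ± 47.5 to 55537 ± 1968 CPM. Ighg3, Ighg2b and Ighg2c rose by 7.79 (SE 0.20), 9.81 (SE 0.28) and 10.06 (SE 0.41). Ighd fell by 3.69 (SE 0.15, adjusted p = 1.76e-10), from 464 ± 41.9 to 14.3 ± 3.99 CPM. Ighg1 passed on 1 cell (8.37, SE 1.83, adjusted p = 0.00171), and turned lower in DESeq2 without passing (-3.49, adjusted p = 0.358). edgeR's TMM scaling, which assumes that most genes do not differ, set all genes 1.33 higher in plasma cells than scaling to total UMIs did. On total UMIs the differences were 4.23 for Ighm, 9.23 for Igha, 9.19 for Jchain and -5.02 for Ighd, with the directions kept.

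Jchain differed between plasma cells of different isotypes. In plasma cells dominated by Ighm, Jchain was at 54004 and 57990 CPM at 30 °C and at 47821 and 53565 CPM at 4 °C. In those dominated by Igha it was at 72837 and 72290 CPM at 30 °C and at 71162 and 70319 CPM at 4 °C. In those dominated by a gamma gene it was at 33020 and 32888 CPM at 30 °C and at 26353 and 33461 CPM at 4 °C. The 3 groups did not overlap in any library: the means were 71652 ± 1130 CPM with Igha, 53345 ± 4186 CPM with Ighm and 31430 ± 3394 CPM with a gamma gene (SD, n = 4). Of the cells dominated by a gamma gene, those with Ighg3 had 19708 to 34755 CPM of Jchain and those with Ighg2b 21590 to 38159 CPM. The 6 cells with Ighg2c, 1 to 3 per library, ranged from 20761 to 69048 CPM, the highest from 1 cell and above every Ighm library. Every plasma cell dominated by a gamma gene or by Igha still held Jchain UMIs, in all 4 libraries.

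**Figure D2:**
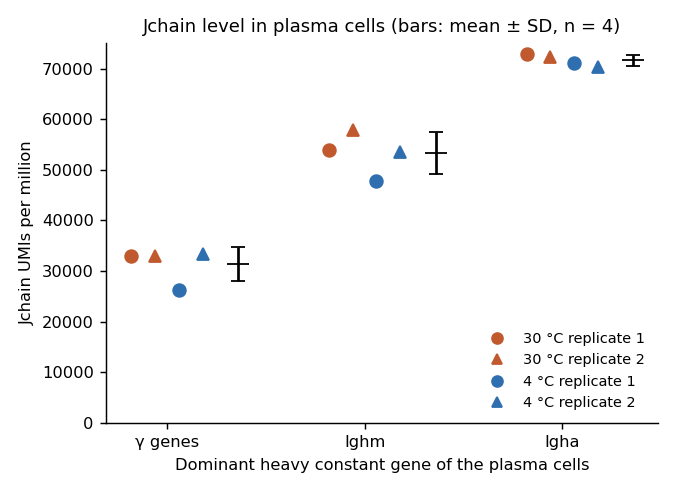
Points give Jchain CPM in plasma cells of each library, grouped by the dominant heavy constant gene (gamma genes, Ighm, Igha), with colour for temperature and shape for replicate, and the bars at the side give the mean and SD over 4 libraries. The Igha points lie between 70319 and 72837, all above the Ighm points, and the gamma gene points end at 33461.

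With the library as a block, edgeR put Jchain 0.96 higher on the log2 scale in Igha than in Ighm plasma cells (SE 0.12, adjusted p = 0.00162), where 6.02% of all genes tested passed. TMM set all genes 0.53 higher in this comparison, and on total UMIs the difference was 0.43 (SE 0.11, adjusted p = 0.0147). Without the first cold library it missed the threshold (0.88, adjusted p = 0.0707). For gamma gene against Ighm plasma cells, where 1.38% of all genes tested passed, the difference of -0.42 (SE 0.25, adjusted p = 0.657) did not pass, nor did the difference of -0.77 on total UMIs (adjusted p = 0.132). Only 8 to 18 cells per library entered the gamma gene sums. The cells that were compared differed in depth: the median was 25164 to 28408 UMIs with Ighm, 35769 to 40742 with Igha and 33189 to 49484 with a gamma gene. Whether depth had a part in the Jchain values was not tested. With TMM, genes that encode the secretion machinery moved with Igha in part. Of the 20 genes of the antibody secretion list, 6 were higher in Igha than in Ighm plasma cells and 0 lower, with a list median of 0.12 against -0.01 over all genes. On total UMIs 5.65% of the calls over all genes were higher, against 58.7% with TMM. Ssr4, 1 of the 6, was at 1353 against 1427 CPM and so turned lower on total UMIs. Among the 6 were Edem1, which clears misfolded proteins (0.95, SE 0.11, adjusted p = 9.23e-04), Xbp1, the transcription factor of the secretory programme (0.81, SE 0.098, adjusted p = 0.00115), and Tnfrsf17, the survival receptor BCMA (0.81, SE 0.13, adjusted p = 0.00486). Of 10 switch-directing receptors and factors tested, 2 were higher and 1 lower, with a median of -0.03. Tgfbr1, 1 of the 2, a receptor for the cytokine TGF-beta that directs switching to IgA, was higher (1.37, SE 0.25, adjusted p = 0.0107) at 16.1 against 9.01 CPM. These 4 differences and the medians of both lists include the TMM shift of 0.53, which is larger than either median. In gamma gene plasma cells, 1 gene of the secretion list was higher and 1 lower than in Ighm plasma cells.

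Germinal centre B cells carried mostly Ighm, and where they had switched they had switched to Ighg3 or Ighg2b. Of 812 such cells with a dominant gene, Ighm was dominant in 736, Ighg3 in 57, Ighg2b in 19 and Igha in 0. All but 1 of the 76 switched cells sat in replicate 2 of either temperature. The switched share was 1.23% (interval 0.0313 to 6.69) and 12.8% (9.32 to 16.9) at 30 °C and 0% (up to 2.58) and 12.6% (8.91 to 17.2) at 4 °C. Those replicates 2 also held more germinal centre B cells, 323 and 271, against 82 and 141 in replicates 1. The mean difference between temperatures was -0.684 percentage points (two-sided exact permutation test, p = 0.667), much less than the spread within each temperature, and it turned to 5.09 without the second thermoneutral library and to 5.64 without the first cold one. For Igha, 0 of 81 and 0 of 321 cells at 30 °C allow a share of up to 3.70% and 0.935%, and 0 of 141 and 0 of 269 cells at 4 °C one of up to 2.13% and 1.12%, taking 3 cells as the limit that a count of 0 allows in place of the Clopper-Pearson bound.

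The switched germinal centre B cells were also read as single cells. The 57 cells dominated by Ighg3 had a median of 20 Ighg3 UMIs (range 5 to 227) against 3 Ighm UMIs, and the 19 dominated by Ighg2b had 22 Ighg2b UMIs against 4 of Ighm. That the dominant gene exceeded Ighm in these cells follows from the rule that picked it. Summed Ighg3 was at 52.4 and 300 CPM at 30 °C and at 73.8 and 227 CPM at 4 °C, so the same replicates 2 stood high. Ighm in this class was at 3703 and 2958 CPM at 30 °C and at 3398 and 3124 CPM at 4 °C. Of 7 members tested between temperatures, 0 passed in edgeR, where 1.39% of all genes did, 1 passed at an unadjusted p of 0.05 (Igha) and 0 passed in DESeq2, while 1 to 3 passed with a library left out. Jchain differed by 0.05 (SE 0.12, adjusted p = 0.933) and Ighg3 by -0.43 (SE 0.49, adjusted p = 0.795).

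Jchain was already raised in germinal centre B cells. It was at 663 and 769 CPM at 30 °C and at 674 and 905 CPM at 4 °C, against 114 and 158 CPM and 42.9 and 101 CPM in other B cells of the same libraries. The classes did not overlap, and edgeR gave a difference of 2.74 (SE 0.19, adjusted p = 6.94e-09). Ighd was lower by 3.45 (SE 0.073, adjusted p = 2.47e-14), at 50.5 ± 8.19 CPM against 464 ± 41.9 CPM (SD, n = 4). In all, 6 of the 8 members tested passed, as did 62.6% of all genes. Igha was lower by 0.48 (SE 0.079, adjusted p = 1.01e-04) and Ighg2c by 1.01 (SE 0.25, adjusted p = 0.00291), with Igha at a level in both classes that T cells and ILC2 also had. Ighg3 was higher by 0.91 (SE 0.26, adjusted p = 0.00756) in edgeR and did not pass in DESeq2 (adjusted p = 0.258). Without the second thermoneutral library it was 0.35 (adjusted p = 0.0339). Ighm was lower by 0.20 (SE 0.040, adjusted p = 5.06e-04), but TMM set all genes 0.23 lower here, and on total UMIs Ighm turned to 0.03 higher (adjusted p = 0.50).

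Of the 12 genes of the class switch machinery, 8 were higher in germinal centre B cells than in other B cells and 0 lower. Of all genes tested in this comparison, 62.6% passed in either direction, so the 8 are a share near that of all genes. The list median was 0.71 against -0.10 over all genes. Among genes outside the gate, Exo1, an exonuclease that processes the cut DNA, rose by 2.46 (SE 0.30), Lig4, the ligase of end joining, by 2.37 (SE 0.15) and Msh6, a mismatch sensor, by 1.92 (SE 0.13). Germinal centre B cells also divided more, as the Mki67 levels show, and the part of that in these differences was not tested. Of the 16 receptors and factors that direct switching, 3 were higher and 11 lower. Smad3, which carries the TGF-beta signal, fell by 3.53 (SE 0.41), Runx3, a partner of it at the Igha locus, by 2.16 (SE 0.13) and Ifngr2, an interferon-gamma receptor chain, by 1.59 (SE 0.10). Tnfrsf13c, the BAFF receptor, rose by 0.56 (SE 0.056). Of the 19 secretion genes tested, 10 were higher and 7 lower, and of the 7 Hspa5 turned higher on total UMIs, at 163 against 155 CPM. Plasma cells had all 20 of them higher than other B cells, with a median of 4.44, where 50.1% of all genes passed in either direction. All 10 markers of the plasma gate are among these 20 genes, so for them the direction was fixed by the gate.

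Other B cells were nearly all Ighm cells. Of 8317 with a dominant gene, Ighm was dominant in 8034, Ighd in 174, Ighg3 in 53, Ighg2b in 32, Igha in 16 and Ighg2c in 8. The median cell had 23 UMIs of its dominant gene, far fewer than a plasma cell. The switched share was 1.14% and 0.902% at 30 °C and 1.43% and 1.77% at 4 °C, higher by 0.575 percentage points in the cold (two-sided exact permutation test, p = 0.333). Ighd was dominant in 1.41% and 1.33% at 30 °C and in 2.74% and 2.96% at 4 °C, also without overlap and also at p = 0.333 in the exact permutation test. The 53 cells dominated by Ighg3 had a median of 27 Ighg3 UMIs and 4 Ighm UMIs, and the 16 dominated by Igha had 15 Igha UMIs and 1.5 Ighm UMIs.

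Cells switched by their heavy chain had little Ighd. In Ighm cells of this class Ighd was at 436 and 416 CPM at 30 °C and at 440 and 505 CPM at 4 °C. In switched cells it was at 46.0 and 34.5 CPM at 30 °C and at 3.01 and 30.0 CPM at 4 °C, from 19 to 40 cells per library. The share of cells with an Ighd UMI was 86.3% to 89.8% in the first and 4% to 26.3% in the second, although the switched cells were sequenced deeper, with a median of 9461 to 15216 UMIs against 7485 to 8241. Ighd was not used to call a cell switched, beyond not being its top gene.

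In other B cells, 2 of 8 members passed between temperatures, where 14.6% of all genes did, and DESeq2 called 1. With the replicate number as a block, 3 passed, the third being Igha. Ighm, at 3278 and 3242 CPM at 30 °C and at 3177 and 3142 CPM at 4 °C, was lower in the cold by 0.15 (SE 0.028, adjusted p = 0.00661) and by 0.05 on total UMIs, where it did not pass (adjusted p = 0.247). Nor did it pass without the first or the second thermoneutral library (adjusted p = 0.0893 and 0.0583). Jchain, at 114 and 158 CPM at 30 °C and at 42.9 and 101 CPM at 4 °C, was lower by 1.00 (SE 0.28, adjusted p = 0.0369) and did not pass in DESeq2 (adjusted p = 0.504) or without the first or the second thermoneutral library (adjusted p = 0.0537 and 0.177). It was -0.53 without the first cold library and -1.76 without the second, past the threshold both times. A single cell held 21.1% and 46.1% of the Jchain UMIs of this class in the thermoneutral libraries, with 502 and 1413 UMIs. Without the cell with most Jchain UMIs in each library the levels were 89.7 and 85.3 CPM at 30 °C, against 41.7 and 95.6 CPM at 4 °C, so the temperatures overlapped, and the difference of -0.43 (SE 0.25, adjusted p = 0.292) did not pass. Jchain in T cells of these libraries was at 137 and 80.6 CPM at 30 °C and at 31.8 and 88.2 CPM at 4 °C, a range that overlaps that of other B cells, and the part of RNA from outside the cell in this difference was not tested. The change of Jchain was more positive in germinal centre B cells than in other B cells by 1.14 (interaction term in edgeR, SE 0.16, adjusted p = 0.00240), where 0.277% of all genes passed, but not past the threshold in DESeq2 (adjusted p = 0.689) or with stricter gates (0.91, adjusted p = 0.128). Without the top Jchain cell of each class and library it was 0.60 (SE 0.17, adjusted p = 0.300), smaller but of the same sign. Ighd was at 444 and 428 CPM at 30 °C and at 461 and 524 CPM at 4 °C, a difference of 0.08 (SE 0.055, adjusted p = 0.414) that passed on total UMIs at 0.18 (adjusted p = 0.0479).

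In other B cells, 7 of 16 receptors and factors of switch direction were higher and 1 lower at 4 °C, where 14.6% of all genes passed in either direction. Tbx21, a factor for switching to IgG2, rose by 1.18 (SE 0.30, adjusted p = 0.0264) at 2.06 against 0.845 CPM and Cd40, the receptor for T cell help, by 0.37 (SE 0.061, adjusted p = 0.00269). Tgfbr1 fell by 0.46 (SE 0.096, adjusted p = 0.0102). Of 12 machinery genes, 2 were lower and 0 higher, a share near that of all genes. Ung, 1 of the 2, which removes uracil from DNA, fell by 0.47 (SE 0.11, adjusted p = 0.0149). Of 19 secretion genes, 6 were higher and 3 lower, with Irf4, a factor of plasma cell formation, up by 0.63 (SE 0.058, adjusted p = 7.74e-05) and Prdm1, the gene of Blimp-1, down by 0.98 (SE 0.17, adjusted p = 0.00369). In plasma cells and germinal centre B cells, 0.789% and 1.39% of all genes passed in edgeR. There, 0 genes of the machinery and direction lists passed, and the secretion list had 1 and 2 lower genes. Herpud1, of the endoplasmic reticulum stress response, was lower in both, by 1.71 (SE 0.15, adjusted p = 0.00215) in plasma cells at 362 against 1130 CPM and by 1.01 (SE 0.13, adjusted p = 0.00115) in germinal centre B cells. Pou2af1, a coactivator of immunoglobulin genes, was lower by 0.44 (SE 0.095, adjusted p = 0.0385) in germinal centre B cells. The differences between classes in these counts were not tested.

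**Figure D3:**
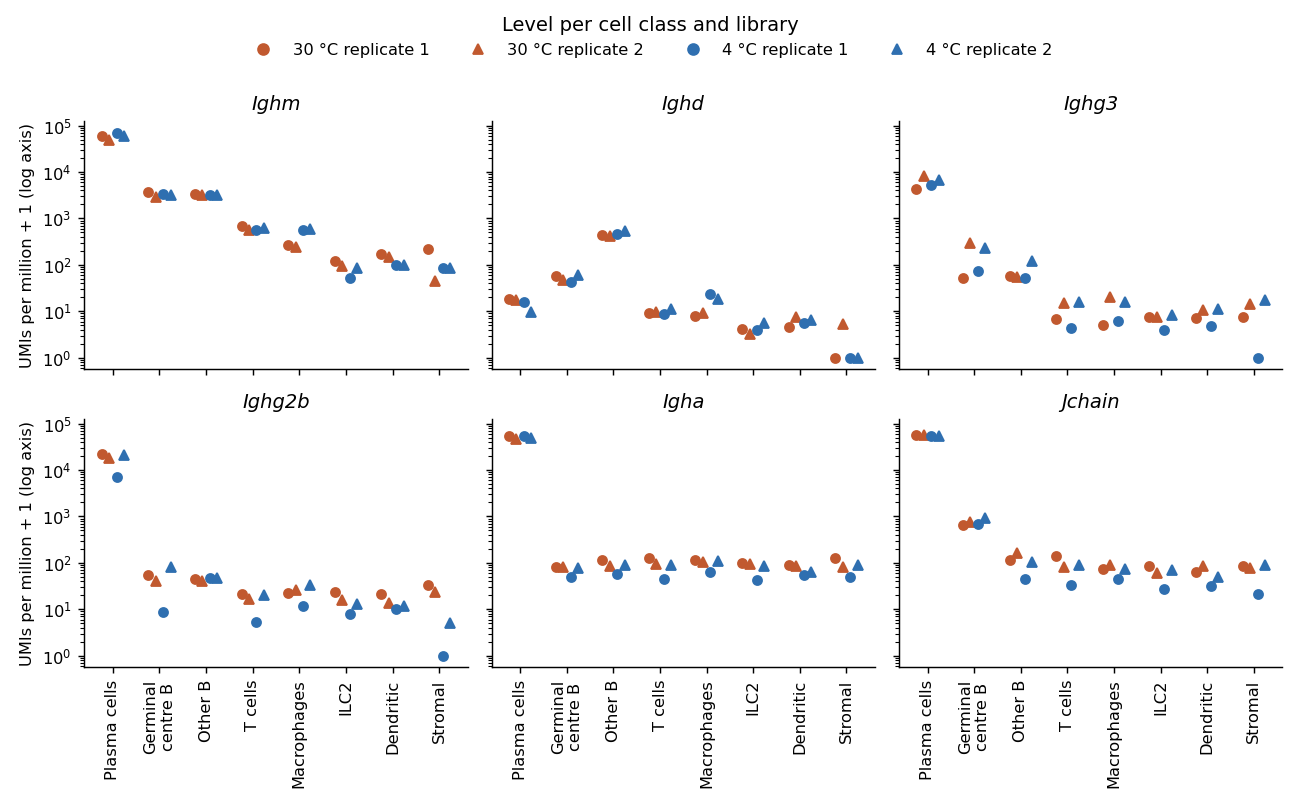
Points give CPM plus 1 on a log axis for Ighm, Ighd, Ighg3, Ighg2b, Igha and Jchain in each cell class, 4 libraries per class with colour for temperature and shape for replicate. Jchain in germinal centre B cells (663 to 905 CPM) lies between plasma cells and all the other classes, while Igha outside plasma cells lies between 41.1 and 128 CPM.

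The ambient level was read in T cells, which make no antibody. Igha in T cells was at 128 and 92.4 CPM at 30 °C and at 43.1 and 88.1 CPM at 4 °C. ILC2, chosen as a second background after values were seen, had 97.3 and 92.4 CPM at 30 °C against 41.1 and 84.5 CPM at 4 °C. Both classes had the same lowest library, and edgeR found no difference in Igha between them (0.03, SE 0.10, adjusted p = 0.876). Germinal centre B cells had 48.0 to 79.8 CPM and other B cells 56.7 to 114 CPM of Igha, ranges that overlap that of T cells. In the cold libraries other B cells stood slightly above T cells (56.7 against 43.1 CPM and 89.7 against 88.1 CPM) and at 30 °C below them, and in the first thermoneutral library a single T cell held 19.1% of the T cell UMIs. Igha sums in these B cell classes were thus not told apart from the level in T cells. A dominant gene was found in 1148 and 1097 T cells at 30 °C and in 1093 and 1129 at 4 °C. It was Igha in 7.67% and 6.93% of them at 30 °C and in 1.56% and 4.87% at 4 °C, and a gamma gene in 0.261% to 0.886%. The Igha shares cannot be set against the 0.0949% to 0.265% in other B cells as a rate of background, since a B cell's own Ighm UMIs compete for the call. The T cells with a dominant gene had a median of 7 UMIs of it, but that gene was Ighm in 4210 of 4467 and Igha in 236. The 16 other B cells dominated by Igha had a median of 15 Igha UMIs, which cannot be set against that 7.

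Ighg3 was at 5.89 and 13.9 CPM in T cells at 30 °C and at 3.38 and 14.9 CPM at 4 °C, Ighg2b at 4.44 to 20.1 CPM, Ighg2c at 0.466 to 7.08 CPM and Ighd at 7.87 to 10.2 CPM. Each is well under the level in other B cells for Ighg3 (50.0 to 122 CPM), Ighg2b (38.8 to 46.5 CPM) and Ighd (428 to 524 CPM), whereas Ighg2c overlapped (2.44 to 13 CPM). Ighe, the IgE gene, had 0 UMIs in plasma cells, 1 in germinal centre B cells, 2 in other B cells and 2 in T cells, too few to tell from background. Of 7 members tested between temperatures in T cells, 0 passed in edgeR, where 8.15% of all genes did, 1 passed at an unadjusted p of 0.05 (Igha) and 0 in DESeq2. Igha differed by -0.81 (SE 0.28, adjusted p = 0.119) and Jchain by -0.93 (SE 0.41, adjusted p = 0.196).

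Ighm did not keep to that background. T cells had 682 and 556 CPM of Ighm at 30 °C and 554 and 632 CPM at 4 °C, while ILC2 had 121 and 94.6 CPM at 30 °C against 52.0 and 85.4 CPM at 4 °C. The groups did not overlap, and edgeR gave 2.74 (SE 0.11, adjusted p = 5.35e-12). Ighd was higher too, by 1.32 (SE 0.32, adjusted p = 0.00492), at 8.77 ± 1.01 against 3.21 ± 0.952 CPM (SD, n = 4). Jchain was higher by 0.36 (SE 0.11, adjusted p = 0.0214), but not in DESeq2 (adjusted p = 0.0899) or without the first or the second thermoneutral library (adjusted p = 0.181 and 0.0789), and a single T cell held 20.9% of its UMIs in the first of these. In all, 3 of 8 members passed, where 23.6% of all genes did. Per Igha UMI there were 1.01 to 1.27 Ighm UMIs in ILC2 and 1.07 to 1.30 in plasma cells, but 5.34 to 12.9 in T cells. T cells with no B lineage marker detected had 570 to 655 CPM of Ighm. Since Ighm in T cells stood above that in ILC2 and its source was not tested, it was not taken as a background.

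**Figure D4:**
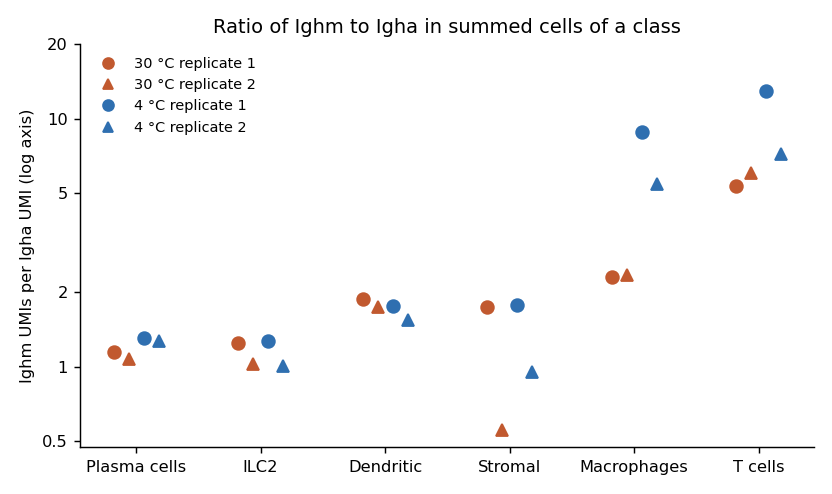
Points give the number of Ighm UMIs per Igha UMI on a log axis in plasma cells, ILC2, dendritic cells, stromal cells, macrophages and T cells of each library, with colour for temperature and shape for replicate. Plasma cells and ILC2 lie near 1, T cells between 5.34 and 12.9, and macrophages at 2.30 and 2.33 at 30 °C and at 8.80 and 5.43 at 4 °C.

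Among T cells grouped by a detected gene, Ighm was highest in those with Foxp3, the gene of regulatory T cells. These 3400 cells had 920 and 937 CPM at 30 °C against 918 and 1016 CPM at 4 °C. T cells with Cd4 and no Foxp3 had 349 to 543 CPM, T cells with Cd8 203 to 348 CPM and T cells with Trdc, the delta constant gene, 86.2 to 136 CPM. The last group overlapped with ILC2. T cells with none of these genes had 323 to 430 CPM in 3 libraries and 1045 CPM in the first thermoneutral one, 40.2% of it in 1 cell. Against Trdc cells, Foxp3 cells had 2.96 more on the log2 scale (SE 0.082, adjusted p = 1.58e-14), and against Cd4 cells 1.11 more (SE 0.081, adjusted p = 4.78e-08). Ighd followed, by 1.99 (SE 0.28, adjusted p = 1.78e-05) and 0.69 (adjusted p = 0.00133), the second not past the threshold in DESeq2 (adjusted p = 0.0720). In the first comparison 3 of 8 members passed against 35.3% of all genes, the third being Igha, which was lower (-0.43, SE 0.16, adjusted p = 0.0386) and not called by DESeq2. A single cell held 59.5% and 28.9% of the Igha UMIs of Trdc cells in the thermoneutral libraries, and without the top cell of each subset and library the difference turned to 0.19 (SE 0.088, adjusted p = 0.113). In the second, 2 of 8 passed against 31% of all genes.

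The Ighm UMIs were spread over many T cells. After thinning to 4300 UMIs per cell, 87.3% to 92.9% of Foxp3 cells had one, against 25.2% to 44.4% of Trdc cells, although Foxp3 cells were the shallower (median 5692 to 6574 against 8632 to 10825 UMIs before thinning). Unthinned, the shares were 94.7% to 96.3% and 45.9% to 70.8%. The defining B cell gene Cd79a was at 8.20 to 14.8 CPM in Foxp3 cells and at 5.97 to 10.8 CPM in Trdc cells, against 2229 to 2560 CPM in other B cells, and Igkc was at 281 to 625 and 201 to 560 CPM. The ranges overlapped, but within libraries Cd79a was higher in Foxp3 than in Trdc cells in all 4, at 11.7 against 10.8 and 11.9 against 8.04 CPM at 30 °C, and at 8.20 against 5.97 and 14.8 against 8.56 CPM at 4 °C. Igkc was higher in 3 of 4. Cd79a is a marker of the B lineage gate, so its contrast with other B cells was partly set by the gating. The source of the Ighm UMIs in T cells was not tested.

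Macrophages held more Ighm in the cold. They had 266 and 241 CPM at 30 °C against 550 and 578 CPM at 4 °C. Both cold libraries were above both thermoneutral ones, and edgeR gave 1.11 (SE 0.095, adjusted p = 2.12e-05; DESeq2 2.71e-14). Ighd was higher by 1.40 (SE 0.29, adjusted p = 0.00687), on 12 and 15 UMIs at 30 °C against 89 and 28 at 4 °C, and did not pass in DESeq2 (adjusted p = 0.153) or without the first cold library (1.17, adjusted p = 0.0801). These were the 2 of 7 members that passed, where 17.4% of all genes did. The cold difference of Ighm was larger in macrophages than in T cells by 1.26 (interaction term, SE 0.11, adjusted p = 1.91e-06), where 6.74% of all genes passed. Igha, at 116 and 103 CPM at 30 °C and at 62.5 and 107 CPM at 4 °C, did not move up with Ighm, and Jchain was at 71.3 and 89.9 CPM at 30 °C and at 42.9 and 72.3 CPM at 4 °C. Igkc in macrophages ranged from 296 to 500 CPM and Cd79a from 10.3 to 17.4 CPM.

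Some marker genes of resident macrophages also differed in level between temperatures. Whether the mix of macrophages differed, or the levels within the same kinds of cells, was not tested. Lyve1, a marker of resident macrophages, was at 783 and 752 CPM at 30 °C, against 106 and 112 CPM at 4 °C, and Cd163, a scavenger receptor of such cells, at 1198 and 1078 CPM, against 500 and 535 CPM. Folr2, another resident marker, was at 813 and 663 CPM at 30 °C, against 716 and 768 CPM at 4 °C, with overlap. In macrophages with 2 or more of 5 resident markers detected, which made up 86.4% and 86.5% at 30 °C and 81.7% and 79.3% at 4 °C, Ighm was at 253 and 256 CPM at 30 °C, against 636 and 664 CPM at 4 °C. In the remaining 23 to 83 macrophages per library it was at 344 and 165 CPM, against 238 and 292 CPM, with overlap. The markers were Lyve1, Folr2, Timd4, Cd163 and F13a1, chosen after values were seen, and the split itself rests on genes that differed with temperature.

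The difference in Ighm was not carried by a few macrophages. The median macrophage had 2 Ighm UMIs in both libraries at 30 °C and 4 in both at 4 °C, and 39.1% and 33% of macrophages at 30 °C against 66.7% and 73.4% at 4 °C had 3 or more, while ILC2 with 3 or more made up 1.80% to 11.8%. Macrophages had a median of 9768 and 9493 UMIs per cell at 30 °C, against 8209 and 9431 at 4 °C. Whether depth had a part in the Ighm difference was not tested. Without the tenth of cells highest in Ighm, the levels were 205 and 185 CPM at 30 °C against 460 and 500 CPM at 4 °C. Against ILC2, macrophages had 2.04 more Ighm (SE 0.32, adjusted p = 2.39e-04) and 2.02 more Ighd (SE 0.37, adjusted p = 6.99e-04), 2 of 7 members passing where 65.2% of all genes did. Igha did not differ past the threshold (0.20, SE 0.13, adjusted p = 0.196). The source of the Ighm UMIs in macrophages was not tested.

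**Figure D5:**
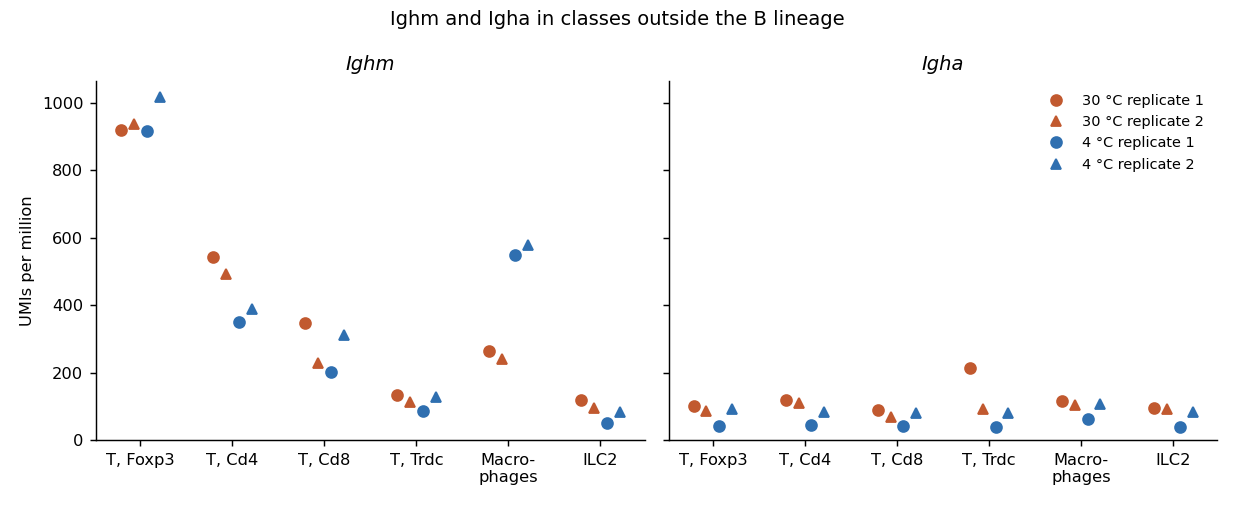
Points give CPM of Ighm (left) and Igha (right) in T cell subsets, macrophages and ILC2 of each library, with colour for temperature and shape for replicate. For Ighm, Foxp3 cells lie between 918 and 1016 and Trdc cells and ILC2 at 136 or less. The cold macrophage libraries (550 and 578) lie above the thermoneutral ones (266 and 241) for Ighm.

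Over 32 sums (8 cell classes in 4 libraries), the 3 genes outside the immunoglobulin genes whose log2 CPM was most like that of Jchain were Pls1, an actin bundler (Pearson's r = 0.973), Slpi, a secreted protease inhibitor (0.942), and Txndc11, a thioredoxin family protein (0.938). For Igha they were Ssr4, of the translocon (0.938), a, the nonagouti gene (0.936), and Slpi (0.934). These values describe likeness over sums that share libraries and depth and come with no p.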

How the data were processed

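Single-cell RNA sequencing (Chromium 3′ v3) was analysed in 4 libraries, 2 per temperature. The authors aligned the reads to mm10 with STAR and Cell Ranger (3.0.0 in the methods and the file headers, 3.1.0 in the submitters' processing notes) and deposited raw UMI counts for each gene in each cell. Cells were kept at over 200 and under 5000 genes with less than 7.5% mitochondrial counts, after limits of 100 genes per cell and 10 cells per gene. A cell was placed in a class by how many markers it expressed: 7 of 10 for plasma cells, 4 of 7 for the B lineage, 3 of 8 for the germinal centre, 4 of 6 for T cells, 3 of 6 for macrophages and 3 of 5 for ILC2. These thresholds were set on the marker distributions.

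UMIs summed per library and class (53423899 to 54933486 UMIs kept per library) were tested with edgeR 4.0.16 in R 4.3.3 (filterByExpr, TMM, quasi-likelihood, Benjamini-Hochberg over all genes tested, threshold 0.05), with the library as a block between classes. Adjusted p values without a named tool are edgeR's. DESeq2 1.42.0 and other filters, gates, scalings and left-out libraries were alternatives. Shares were compared by exact permutation tests with scipy 1.17.1. The edgeR steps were tested on simulated data. Coordinates and sequences came from GRCm38 with GENCODE M21.

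The genes, the marker lists and the 3 further gene lists (class switch machinery, 12 genes; switch direction, 16; antibody secretion, 20) were chosen with earlier results of these data known. Named genes are the 9 members, list genes past the threshold or with the largest differences, and the 3 genes most like Jchain and Igha among 10383 with at least 500 UMIs (pseudocount 1 CPM). ILC2 as background, the T cell subsets, macrophages, the isotype groups of plasma cells, the interactions, the split of macrophages, the sums without a top cell and the scaling to total UMIs were chosen after values were seen. Replicate numbers did not pair the libraries: the correlation of same-numbered deviations was between -0.119 and 0.0779. Some genes of these lists are counted but not reported here.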

Additional observations from a re-analysis of the deposited data

Results flagged for a closer look

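The effect of cold on Ighm differed between cell classes by the test of the difference itself. It was higher by 1.26 on the log2 scale in macrophages than in T cells (SE 0.11, adjusted p = 1.91e-06), and it kept its side of the threshold in every alternative run, at 1.17 to 1.62.

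Ighd differed in the same way, by 1.44 (SE 0.38, adjusted p = 0.0264), on 144 macrophage UMIs in all. It did not pass in DESeq2 (adjusted p = 0.543), without the first thermoneutral library (1.34, adjusted p = 0.0615) or without the first cold library (0.99, adjusted p = 0.332).

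The effect of cold on Jchain was more positive in germinal centre B cells than in other B cells by 1.14 (SE 0.16, adjusted p = 0.00240). With a library left out it was 0.77 to 1.58, and it did not pass in DESeq2 (adjusted p = 0.689) or with stricter gates (0.91, adjusted p = 0.128). Without the top Jchain cell of each class and library it was 0.60 (adjusted p = 0.300), single cells holding 21.1% and 46.1% of the Jchain UMIs of thermoneutral other B cells. Jchain in other B cells overlapped in level with T cells of the same libraries.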

How the results depend on the processing

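Of 427 alternative values of 37 log2 fold changes or their differences, 374 kept their direction and side of the threshold, 33 lost the threshold, 6 gained it and 14 changed sign, and the cause of the changes was not tested. The 2 libraries per temperature allow no call on a share, and fold changes rest on 82 to 115 plasma cells and as few as 82 germinal centre B cells in a library. With the T cell level subtracted, the switched share of germinal centre B cells differed by 0.320 percentage points in place of -0.684. Leaving out each library in turn gave differences in switched share of -7.52 to -4.74 (plasma cells), -7.00 to 5.64 (germinal centre B cells, 5.09 without the second thermoneutral library and 5.64 without the first cold one) and 0.405 to 0.745 percentage points (other B cells). Members called between temperatures were 1 to 2 of those tested in plasma cells, 1 to 3 in germinal centre B cells, 0 to 5 in other B cells (0 and 1 without the first and second thermoneutral library, 5 without either cold one) and 0 in T cells, and 7 to 8 in plasma cells and 6 to 8 in germinal centre B cells against other B cells. Ighm differences ranged from 2.53 to 2.84 (T cells against ILC2), 1.63 to 2.40 (macrophages against ILC2), 1.02 to 1.23 (Foxp3 against Cd4 T cells), 2.85 to 3.07 (Foxp3 against Trdc T cells) and 1.06 to 1.16 (macrophages, cold). Jchain differences ranged from 0.88 to 1.06 (Igha against Ighm plasma cells) and from -0.57 to -0.35 (gamma genes against Ighm). Without the filter on low counts, members called between temperatures were 3 in plasma cells, 1 in germinal centre B cells and 5 in other B cells, and Jchain in gamma gene against Ighm plasma cells passed at -0.54 (adjusted p = 4.11e-05). DESeq2 called 1 member in plasma cells and 1 in other B cells, other B cells had 1 without the upper limit on genes and 1 with stricter gates, germinal centre B cells had 1 with stricter gates, and germinal centre against other B cells had 3 without the library block.

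Signs turned for Ighm between temperatures in plasma cells without the upper limit on genes (-0.059) and without the second thermoneutral library (-0.0030, with -0.0030 to 0.37 over the libraries left out). They turned for Igha there with stricter gates (0.045), with cells of mixed markers kept (0.10), on total UMIs (0.027), and without the first thermoneutral (0.10) or second cold library (0.020, with -0.18 to 0.10). Jchain in germinal centre B cells turned without the upper limit (-0.14), with stricter gates (-0.18), and without the first thermoneutral (-0.053) or second cold library (-0.17, with -0.17 to 0.22). Igha in T cells against ILC2 turned without the first thermoneutral library (-0.083, with -0.083 to 0.067), Ighm in germinal centre against other B cells on total UMIs (0.032), and Igha in Foxp3 against Trdc T cells without the top cell of each library (0.19, with -0.58 to -0.041 over the libraries left out).

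With the replicate number as a block, members called were 0 in plasma cells, 0 in germinal centre B cells, 3 in other B cells (Igha added, -0.55, adjusted p = 0.0103) and 0 in T cells, and no other call of a member changed. In T cells, where the correlation of same-numbered deviations was weakly negative (-0.119), the crossed pairing called 3 members. All genes called in plasma cells numbered 58, and 113 with the block, 398 without the filter, 0 without the upper limit and 88 to 306 with a library left out. They numbered 128 in germinal centre B cells (67 in DESeq2, 277 without the filter, 207 with stricter gates, 113 to 455), 1715 in other B cells (800 in DESeq2, 795 to 2006), 994 in T cells (631 in DESeq2, 242 without the filter, 0 to 303), 1632 in macrophages (711 in DESeq2) and 5664 in plasma against other B cells (9619 on total UMIs). Scaling to total UMIs moved the share of calls that were higher from 27.3% to 54.3% (germinal centre B cells, temperature), 48.5% to 78.1% (other B cells, temperature), 48.0% to 65.4% (T cells, temperature), 50.3% to 9.25% (plasma against other B cells), 45.8% to 62.3% (germinal centre against other B cells), 52.5% to 66.7% (T cells against ILC2), 58.7% to 5.65% (Igha against Ighm) and 49.2% to 17.4% (gamma genes against Ighm).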

Other observations

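A group of 5 T cells in the first thermoneutral library held 100 or more UMIs of a member, with maxima of 812 Ighm, 489 Jchain and 418 Igha UMIs in a cell, and the other libraries held 0 such T cells.

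Second heavy constant genes at 10 or more UMIs were found in 86 of 375 plasma cells (22.9%). Among plasma cells dominated by Igha, the most frequent second genes were Ighg2b in 12 and Ighm in 10 cells, and the highest second gene reached 87.1% of the dominant one.

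In macrophages, 8 of the 15 tested receptors and factors of switch direction were higher and 1 lower at 4 °C, with a list median of 0.56, where 17.4% of all genes passed in either direction. Among them Il21r, the receptor of IL-21, rose by 1.84 (SE 0.28, adjusted p = 0.00103), while Runx3 fell by 3.47 (SE 0.41, adjusted p = 1.92e-04). In T cells, where 8.15% of all genes passed, 4 of 16 were higher and 1 lower, Ifngr1, the interferon-gamma receptor, which fell by 1.26 (SE 0.066, adjusted p = 1.42e-04).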
